A study of Homo sapiens with 8 samples.

Results

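TFIIH is a complex of 10 subunits, and its genes are ERCC3, ERCC2, GTF2H1, GTF2H2, GTF2H3, GTF2H4, GTF2H5, CDK7, CCNH and MNAT1, out of 19970 protein-coding genes annotated on the human genome build hg38 (GENCODE release 44). The accessible regions of these genes were the distinct intervals of 8 ATAC-seq peak lists that overlapped a gene from 5 kb before it to 5 kb after it. Joined across the lists wherever they overlapped by at least 1 bp, they made 146 sites of 548046 in the whole genome. ATAC-seq measures how open chromatin is, because the transposase Tn5 cuts and tags DNA that nucleosomes leave exposed. The libraries came from U2OS cells, an established human osteosarcoma line, either WT or ASH1L-/-, which lacks the histone methyltransferase ASH1L after CRISPR/Cas9 deletions in exon 2 and across exons 11 and 12. Cells of each genotype were unchallenged or were harvested 3 h after a UV-C pulse of 20 J/m2, with 2 biological replicates in each of the 4 groups. The ASH1L-/- cells were grown from an isolated colony, so the effect of the deletion and that of the clone cannot be told apart.

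TFIIH opens DNA for transcription by RNA polymerase II and again around a lesion in nucleotide excision repair, the pathway that removes UV photoproducts. ERCC3 (XPB) is the translocase that opens promoters, and ERCC2 (XPD) is the helicase that unwinds DNA and checks it for lesions in repair. GTF2H1 (p62), GTF2H2 (p44), GTF2H3 (p34), GTF2H4 (p52) and GTF2H5 (p8, or TTDA) complete the core, and CDK7, its cyclin CCNH and the assembly factor MNAT1 form the CDK-activating kinase, which phosphorylates the tail of RNA polymerase II.

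The DNA of 5 places is shown because the results below turn on them. They are the most accessible and the least accessible promoter of the 9 with a region, the promoter of GTF2H2, which had none, with one of its copies elsewhere in the genome, and an intronic site of MNAT1 whose presence differed with UV in part of the comparisons. All sequences are hg38, 5′ to 3′ on the strand given, and capitals mark motif matches on either strand, except in the copy, where the capital marks the 1 base that differs from GTF2H2. The GTF2H4 promoter is chr6:30908007-30908206 (plus strand), with 1 CCAAT. The stretch just before ERCC3 is chr2:127294167-127294211 (minus strand), 45 bases long because only these are free of annotated exons. It does not reach the peak summits of this promoter, which lay between -200 and -152 bp from the start. The GTF2H2 promoter is chr5:71067690-71067876 (minus strand), with 2 CCGGAA, and its copy beside GTF2H2C is chr5:69560021-69560207 (plus strand). The intronic site, MNAT1 +43.38 kb, is shown by 200 bases around its peak summit, chr14:60778037-60778236 (plus strand), and held 2 matches to TGANTCA, the AP-1 motif, and 1 CCAAT.
GTF2H4 promoter: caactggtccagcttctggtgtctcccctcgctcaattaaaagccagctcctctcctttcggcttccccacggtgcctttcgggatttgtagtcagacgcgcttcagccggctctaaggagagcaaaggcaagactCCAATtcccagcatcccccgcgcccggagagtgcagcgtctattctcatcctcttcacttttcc
ERCC3 promoter: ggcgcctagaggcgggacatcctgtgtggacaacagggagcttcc
GTF2H2 promoter: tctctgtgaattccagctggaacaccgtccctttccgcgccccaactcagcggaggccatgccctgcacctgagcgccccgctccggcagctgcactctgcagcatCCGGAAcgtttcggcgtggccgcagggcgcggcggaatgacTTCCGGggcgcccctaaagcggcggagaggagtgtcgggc
copy of the GTF2H2 promoter: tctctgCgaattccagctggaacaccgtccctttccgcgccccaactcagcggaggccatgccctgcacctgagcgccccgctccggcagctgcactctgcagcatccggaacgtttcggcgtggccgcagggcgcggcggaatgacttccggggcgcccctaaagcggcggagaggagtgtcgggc
MNAT1 43.38 kb: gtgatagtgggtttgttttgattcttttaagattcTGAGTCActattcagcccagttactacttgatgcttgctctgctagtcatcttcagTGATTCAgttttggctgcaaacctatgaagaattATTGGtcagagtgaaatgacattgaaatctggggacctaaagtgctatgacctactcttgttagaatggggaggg

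On hg38 the members on the plus strand are GTF2H1 at chr11:18322295-18367045, GTF2H3 at chr12:123633739-123662604, GTF2H4 at chr6:30908207-30914106, GTF2H5 at chr6:158168350-158199344, CDK7 at chr5:69234795-69277430 and MNAT1 at chr14:60734742-60969965. Those on the minus strand are ERCC3 at chr2:127257290-127294166, ERCC2 at chr19:45349837-45370918 and CCNH at chr5:87318416-87412930, together with GTF2H2. Distances in kb below run from the canonical transcription start site along the gene.

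The 8 lists held between 158198 and 220783 regions. Their depth was uneven, with a mean background of 1.39 to 5.87 fragments per base as recovered from the peak statistics, the deepest and the shallowest both being unchallenged ASH1L-/- libraries. Regions were wider after UV, with medians of 356 to 444 bp against 242 to 291 bp in unchallenged cells. Of 7 promoters that mark mesenchymal cells, 5 had a region in all 8 lists, COL1A2 in 7 and TWIST1 in 2. Of 7 promoters of other lineages, EPCAM, CDH1 and SYP also had one in all 8 lists, while CD3E had none, PTPRC and ALB had one in 1 list and HBB in 3. The ASH1L promoter had a region in all 8 lists, which does not check the knockout, since the deletions lie elsewhere in the gene. Within 5 kb of ASH1L there were 15, 15, 12 and 9 regions in the WT lists and 4, 3, 4 and 9 in the ASH1L-/- lists.

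The promoters of 9 of the 10 subunit genes had an accessible region in all 8 lists. Of all 19970 protein-coding promoters, 67.6% did so, as did 15 of 15 other nucleotide excision repair genes and 8 of 8 genes of the other general transcription factors. Levels were compared as the percentile of a region's fold enrichment, the pileup of fragments at its summit over the local background, among all regions of the same list. A value of 99 thus means stronger than 99% of the regions of that library. In such bulk samples, a site open in fewer cells and a site less open in each cell cannot be told apart. The median of the member promoters, averaged over the 8 libraries, was 96.5, beside 93.7 for the other repair genes, 96.9 for the other transcription factors and 88.55 for all promoters present in all lists.

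GTF2H4, the p52 subunit that anchors ERCC3 in the complex, had the most accessible promoter. In WT its percentile was 99.65 and 99.9 without UV and 99.8 and 99.3 after it, and ASH1L-/- cells gave 99.6 and 99.0 without UV and 99.7 and 99.4 after it. No library fell below 99.0, and the promoter ranked above 97.7% of the 13492 promoters found in every list. ERCC3, the subunit next to it, stood at the other end. It measured 90.9 and 84.7 in unchallenged WT, 82.6 and 79.0 in WT after UV, 89.7 and 83.7 in unchallenged ASH1L-/-, and 85.0 and 83.3 in ASH1L-/- after UV. It was the lowest of the 9 promoters in 8 of 8 libraries.

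Between these ends lay GTF2H3 with a mean of 97.4 ± 1.12 (SD over 8 libraries), ERCC2 with 97.2 ± 1.43, GTF2H1 with 96.9 ± 2.52, CCNH with 96.5 ± 1.57, GTF2H5 with 95.7 ± 3.64, CDK7 with 93.4 ± 2.99 and MNAT1 with 92.0 ± 3.18. Neighbours in this order differed by less than their spread over libraries, apart from GTF2H4 above GTF2H3 and ERCC3 (84.9 ± 3.83) below MNAT1. By rank among the 13492 promoters, 8 of the 9 lay above the middle, from 62.3 for MNAT1 to 97.7 for GTF2H4, and ERCC3 lay at 39.4. Of the 3 kinase genes, CCNH ranked at 82.0, CDK7 at 67.6 and MNAT1 at 62.3. A region at the start of GTF2H1, GTF2H3 or GTF2H5 cannot be assigned to that gene alone, because HPS5, EIF2B1 and SERAC1 start within 1 kb of it.

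**Figure D1:**
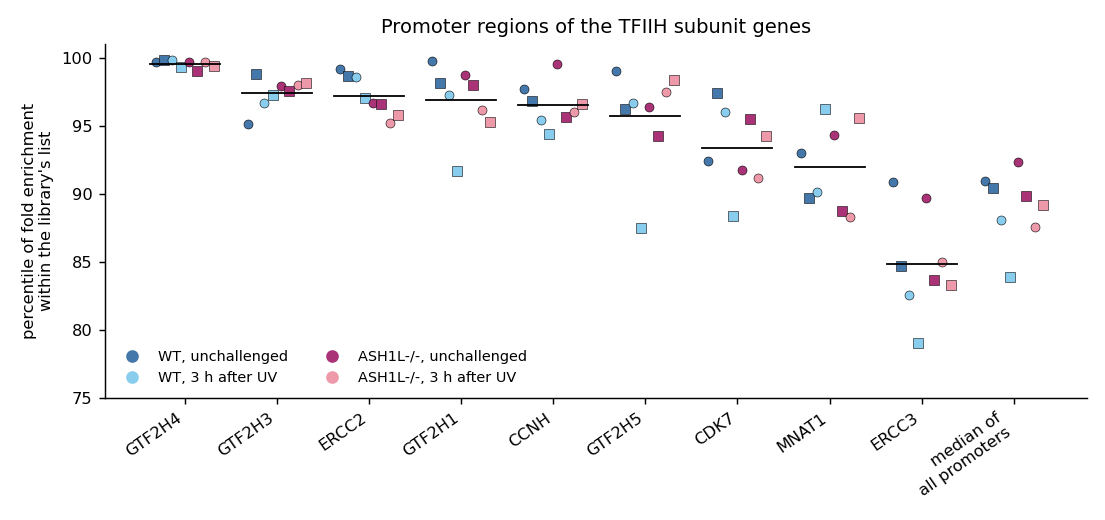
Promoter accessibility of 9 TFIIH subunit genes in each of 8 libraries, as the percentile of fold enrichment within the library's list on an axis that starts at 75 (circles, replicate 1, squares, replicate 2, bars, mean of 8 libraries), with the median of all promoters at the right. GTF2H4 stays between 99.0 and 99.9, ERCC3 between 79.0 and 90.9, and GTF2H2 is not drawn because it had no region.

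The regions at the start sites were about as wide as those of any promoter, with medians per library of 637 to 801 bp for the members and 605 to 794 bp for all 13492. The ERCC3 region had a median width of 1109 bp and spanned 455 bp in unchallenged ASH1L-/- replicate 2, where it was split, whereas the medians of the other 8 members lay between 587 and 842 bp. Relative to the canonical start, the summit lay between -210 and -196 bp in GTF2H4 and between -200 and -152 bp in ERCC3. At CDK7 it took 2 positions, upstream of the start in unchallenged WT replicate 1 and both unchallenged ASH1L-/- libraries, down to -186 bp, and downstream in unchallenged WT replicate 2 and all 4 UV libraries, up to +69 bp. The summit is the single highest base of a region with several peaks, so it can jump between them.

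The members' promoters were searched for 7 motifs in the 200 bases before the canonical start site, on both strands. For ERCC3 and GTF2H2 the stretches shown above leave out bases of this window. The CCGGAA of ERCC3 and the GGGCGG of GTF2H2 do not lie wholly within the bases shown. CCGGAA, the core of the ETS motif, was present in 6 of 10 (ERCC3, GTF2H1, GTF2H2, GTF2H3, CCNH and MNAT1) beside 17.4% of 19970 promoters. GGGCGG, the GC box, was present in 5 (ERCC2, GTF2H2, GTF2H5, CDK7 and CCNH) beside 56.3%, CCAAT in ERCC2 and GTF2H4 beside 30.4%, and CACGTG, the E-box, in GTF2H1 and CDK7 beside 6.93%. TGANTCA was present in GTF2H1 alone of the members, beside 3.75%. Neither TATAAA nor TGACGT was present in a member, and 7.83% of all promoters held each. These shares cover open and closed promoters alike, and those among the 13492 promoters found in every list were not counted. GTF2H4, the most accessible, and ERCC3, the least, shared none of the motifs found.

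GTF2H2 had no region in any of the 8 lists, over its whole span of chr5:71035016-71067689 (minus strand, ENSG00000145736.15) or within 5 kb. The gene lies in a segmental duplication. Of the 1952 words of 50 bases in its promoter window, 100% occurred elsewhere in hg38, and 91.1% did so over its span. The other members had 0% to 9.22% repeated words in the promoter window and 1.04% to 11% over the span. Its copies GTF2H2C (chr5:69560191-69595221) and GTF2H2B, a pseudogene (chr5:70415352-70447526), had a region at the start in 3 lists and in none, respectively. The 187 bases shown above occurred with 1 difference beside GTF2H2C and with 0 beside GTF2H2B. The authors removed reads of low mapping quality, and the part of this step in the missing region was not tested, so nothing is known here of the accessibility of GTF2H2.

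UV did not move a member promoter past the threshold. The limma model over 13492 promoters called 0 at an adjusted p below 0.05 (0% of all, with 3842 at an unadjusted p below 0.05). The exact permutation test also called 0, but with 8 libraries it could pass adjustment only if most promoters separated completely, so that count carries no weight. The closest member was GTF2H1, the p62 subunit through which TFIIH is recruited in repair. It measured 99.7 and 98.1 in unchallenged WT, 97.3 and 91.7 in WT after UV, 98.7 and 98.0 in unchallenged ASH1L-/-, and 96.1 and 95.3 in ASH1L-/- after UV. All 4 UV values lay below all 4 unchallenged ones, a difference of -3.54 percentile points (SE 1.14, limma adjusted p = 0.112). Such a separation was found for 21.7% of all promoters and for 1 of the 9 members. The member median was -1.51 points and that of all promoters -2.57.

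On the scale of log2 fold enrichment the sign was the opposite. The median of all promoters was 0.20 higher after UV, 9.88% of promoters were called by limma, and 8 of the 9 members were higher, with a median of 0.23 and none called. GTF2H1 was the exception at -0.11, and MNAT1 showed the largest difference of the members at 0.46 (SE 0.16, limma adjusted p = 0.0744). A percentile is read against the other regions of its list, and the median fold enrichment of the lists was 3.68, 5.06, 3.99 and 3.47 after UV and 3.23, 3.29, 2.57 and 3.71 in unchallenged cells.

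**Figure D2:**
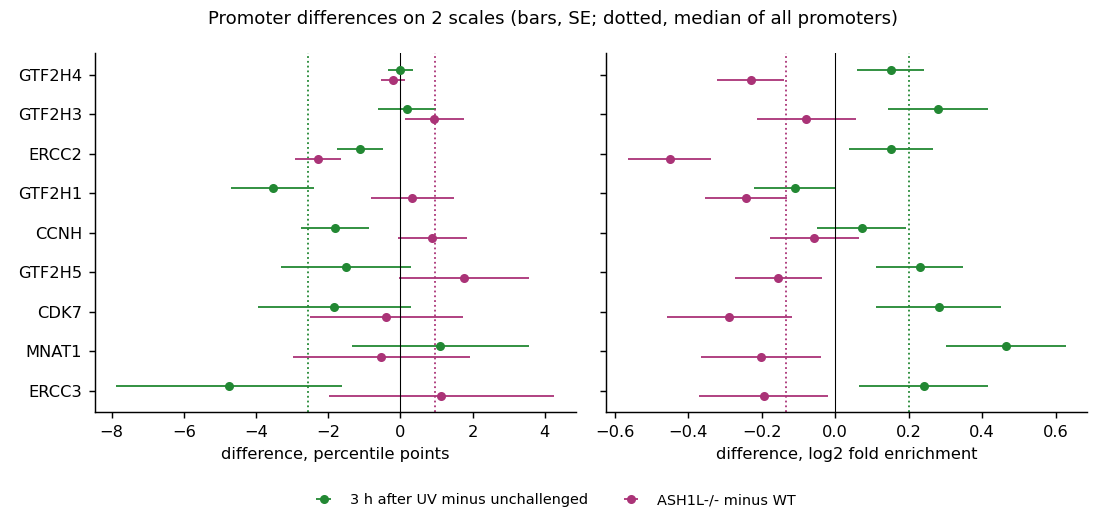
Difference in promoter accessibility for 9 TFIIH subunit genes, UV minus unchallenged (green) and ASH1L-/- minus WT (purple), in percentile points (left) and in log2 fold enrichment (right), with standard errors of the limma model and the median of all 13492 promoters as dotted lines. After UV, 2 of 9 members have a difference above 0 on the left and 8 of 9 on the right, and by genotype 5 of 9 on the left and 0 of 9 on the right.

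The UV result depended on which library of WT after UV was left out. Without replicate 1 the median UV difference was -3.29 points over all promoters and -2.07 over the members, from -5.64 for ERCC3 to 2.65 for MNAT1. In that fit GTF2H1 was at -4.94 points, GTF2H5 at -3.81 and ERCC2 at -1.50. Without replicate 2 the medians were -1.71 over all promoters and -0.43 over the members. When replicate 1 is left out, WT after UV is represented by its replicate 2 alone. That library is assumed to vary like the other groups, and it had the widest regions and the highest median fold enrichment of the 8 lists. In that library GTF2H5, the small subunit that stabilises TFIIH, stood at 87.5, against 99.05 and 96.2 in unchallenged WT, 96.7 in the other WT library after UV, 96.4 and 94.3 in unchallenged ASH1L-/- and 97.4 and 98.3 in ASH1L-/- after UV. The UV difference of GTF2H5 was thus lower in WT than in ASH1L-/- by -8.14 points (SE 3.60, limma adjusted p = 0.999875 with all libraries). It was -12.74 without WT replicate 1 after UV (4.14% of promoters called). That fit leaves the library with 87.5 as the only one of its group, so its size rests on 1 library. The median interaction in it was -1.55 points over the members and -3.18 over all promoters. Without WT replicate 2 after UV instead, these medians were -0.54 and 0.06, and the remaining value of GTF2H5 in that group was 96.7.

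No member promoter was called between the genotypes either. The limma model called 1 of 13492 promoters (0.00741%), no member, with 814 at an unadjusted p below 0.05. The median genotype difference was 0.96 points over all promoters and 0.33 over the members. Without replicate 1 of WT after UV these medians were 1.74 and 1.14, and without its replicate 2 they were 0.11 and -0.33. ERCC2, mutated in xeroderma pigmentosum and trichothiodystrophy, came closest. Its percentile was 99.15 and 98.6 without UV and 98.5 and 97.0 after it in WT, and in ASH1L-/- it was 96.6 and 96.6 without UV and 95.2 and 95.8 after it. The groups did not overlap, as for 2.68% of all promoters, and the difference was -2.28 points (SE 0.63, limma adjusted p = 0.693). On the log2 scale ERCC2 was -0.45 (SE 0.11, limma adjusted p = 0.159), where the median of all promoters was -0.14. For the interaction of UV and genotype, limma called 0% of promoters, 355 at an unadjusted p below 0.05, and the groups of 0.815% of promoters and of 0 members did not overlap.

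For comparison, the UV difference had a median of -1.17 points over the 15 other repair genes and of -2.51 over the 8 other transcription factor genes, and by genotype 0.86 and -0.32. None of these genes was called in either comparison.

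Away from the promoters the members' regions were weak and seldom shared. Of the 146 sites, 12 lay at member start sites of the canonical transcript and 109 within the genes, 15 at alternative start sites, 7 in the flanks and 3 at promoters of other genes. Of the 12 promoter sites 9 were in all 8 lists, against 3 of the 109 internal ones, of which 80 (73.4%) were in a single list. The mean percentile had a median of 94.5 over promoter sites and 29.6 over internal sites, and the summit a median of 101 and 11 fragments. Of all sites of the genome 60.5% were in a single list and 11% in all 8, beside 63.0% and 9.59% of the members' sites.

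**Figure D3:**
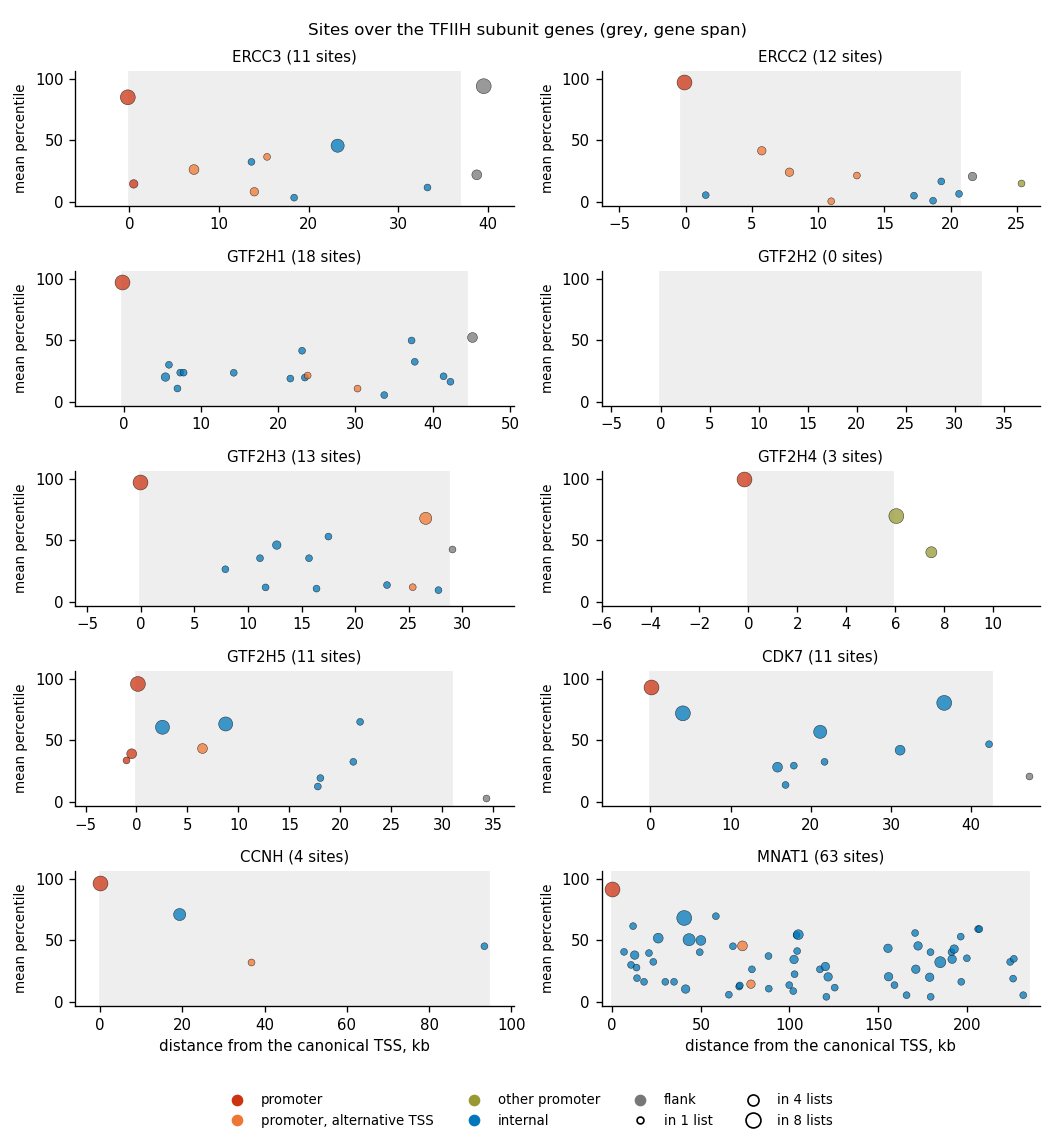
Each of the 146 sites by its distance from the canonical transcription start site in kb along the direction of the gene (horizontal axis, grey for the gene span) and its mean percentile over the lists that hold it (vertical axis, 0 to 100), with the class in colour and the number of lists as the size of the point. MNAT1 holds 63 of the sites, GTF2H4 holds 3 and GTF2H2 holds 0.

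The 5 sites outside member promoters present in all 8 lists belonged to 4 genes. The strongest lay in the flank of ERCC3, 39.52 kb downstream of its start and beyond the end of the gene (chr2:127254223-127254931). Its percentile was 95.3, 87.1, 91.1 and 93.3 in WT (unchallenged, then after UV) and 95.7, 94.9, 96.3 and 97.15 in ASH1L-/-. It exceeded the promoter of ERCC3 in 8 of 8 libraries, by means of 93.85 against 84.9, which held for no other of these 5 sites. Its genotype difference was 4.32 points (SE 1.77, limma adjusted p = 0.499).

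CDK7 had 2 internal sites in all lists. One lay in intron 9 (+36.63 kb, chr5:69271385-69272003) with a mean of 80.4, and one in intron 2 (+4.05 kb) with a mean of 71.9. The fourth was in intron 1 of MNAT1 (+40.63 kb, chr14:60774997-60775736) with 68.2, and the fifth at the VARS2 promoter just behind GTF2H4 (+6.04 kb, chr6:30913957-30914945) with 69.7. Over the libraries, CDK7 +4.05 kb ranged from 62.4 to 82.3 and MNAT1 +40.63 kb from 47.35 to 79.8.

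Of the 14 member sites in all 8 lists, limma called 0 after UV, where 4.69% of 60323 such sites of the genome were called. By genotype limma called 0% of all sites, with 5599 at an unadjusted p below 0.05, and for the interaction also 0%, with 1765. The CDK7 site in intron 2 was called on the log2 scale. Its fold enrichment was 4.24 and 4.57 in unchallenged WT, 8.28 and 8.60 in WT after UV, 3.80 and 4.20 in unchallenged ASH1L-/-, and 7.42 and 5.47 in ASH1L-/- after UV. The UV values were 1.75-fold higher on average (log2 difference 0.81, SE 0.24, limma adjusted p = 0.0287). On this scale 21.6% of all sites were called, and the median site was 0.33 higher. In percentile points the difference was 5.75 (SE 5.87, limma adjusted p = 0.567), and the call was absent.

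**Figure D4:**
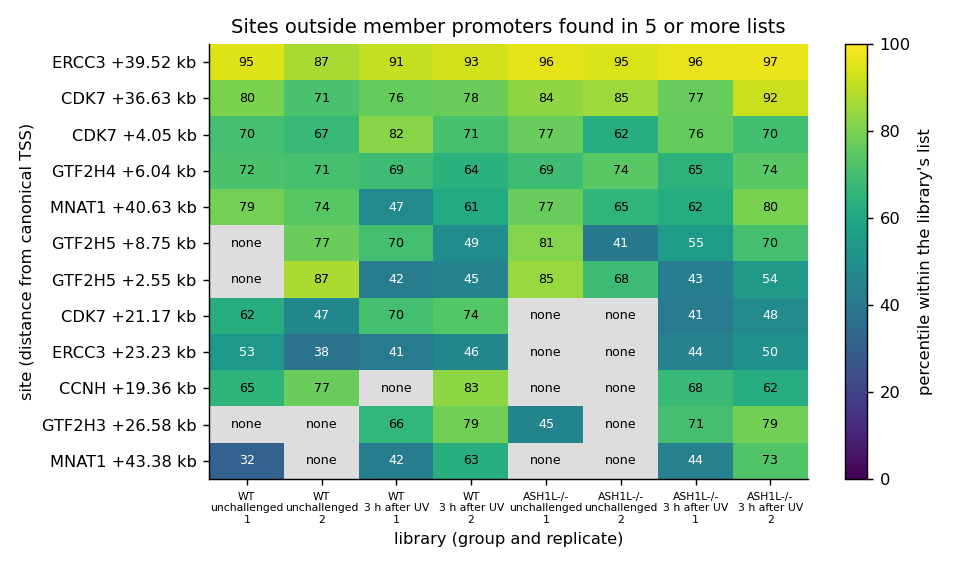
Percentile within the library's list (colour and number, 0 to 100) at the 12 sites away from the canonical start sites of members that were found in 5 or more lists, one row a site and one column a library, with none where the list had no region. GTF2H3 +26.58 kb lies at an alternative start site and GTF2H4 +6.04 kb at the VARS2 promoter. ERCC3 +39.52 kb is at 87 or above in every library, and ERCC3 +23.23 kb and CDK7 +21.17 kb are none in both unchallenged ASH1L-/- libraries.

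Complete separation, with a region in the 4 lists of one side and in no list of the other, was found at 0 member sites for UV (0.782% of all sites) and at 0 for genotype (0.263%). The nearest were 2 sites present in all 4 UV lists and in 1 unchallenged list. GTF2H3 +26.58 kb, at an alternative start site in exon 13 (chr12:123660150-123660778), measured 66.3 and 78.6 in WT after UV, 70.6 and 78.6 in ASH1L-/- after UV and 45.1 in unchallenged ASH1L-/- replicate 1, the deepest library. MNAT1 +43.38 kb, in intron 1 (chr14:60777811-60778576), measured 42.4 and 62.5 in WT after UV, 43.7 and 72.8 in ASH1L-/- after UV and 31.5 in unchallenged WT replicate 1. Of all sites in 5 lists, 35.1% had this pattern, and of the 3 member sites in 5 lists 2 had it.

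When a region had to cover at least 50% of its site, GTF2H3 +26.58 kb, MNAT1 +43.38 kb and ERCC3 +23.23 kb separated UV from unchallenged cells completely, as did 0.957% of all sites. This rule can drop a region for its width alone, and regions were wider after UV. At ERCC3 +23.23 kb both unchallenged WT lists held a region, at 53.4 and 38.5, so its separation is not one of presence. The part of width was not tested. With a q-value of at most 0.01 the GTF2H3 and MNAT1 sites separated completely, beside 1.69% of all sites. Counting missing regions as 0 over sites in at least 4 lists, limma called the GTF2H3 site, 62.25 points higher after UV (SE 13.08, adjusted p = 0.0311), and 7.86% of all sites tested. At this site the summit rested on 16 to 38 fragments in the 5 libraries. The third site in 5 lists, CCNH +19.36 kb (chr5:87393234-87393916), was at 65.0 and 77.2 in unchallenged WT, 82.8 in one WT library after UV, and 67.6 and 62.3 in ASH1L-/- after UV.

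Both member sites in 6 lists were missing in the 2 unchallenged ASH1L-/- lists. ERCC3 +23.23 kb (intron 12, chr2:127270443-127271171) measured 53.4, 38.5, 41.3 and 46.0 in WT and 44.25 and 50.4 in ASH1L-/- after UV. CDK7 +21.17 kb (intron 5, chr5:69255851-69256434) measured 62.1, 46.7, 69.95 and 73.6 in WT and 41.3 and 48.0 in ASH1L-/- after UV. This absence held for 13.0% of 13388 sites in 6 lists, and both sites thus had the patterns of all 4 UV and 2 unchallenged lists (54.3% of such sites) and of all 4 WT and 2 ASH1L-/- lists (22.3%). The 2 libraries without these regions are the deepest and the shallowest of the series, and the part of depth in their absence was not tested. GTF2H5 had 2 sites in intron 2, +2.55 kb (chr6:158170612-158171234) and +8.75 kb (chr6:158176773-158177712), in every list but unchallenged WT replicate 1, with means of 60.7 and 63.3.

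Of 11 member sites in 3 lists, ERCC3 +7.21 kb was in UV lists only (19.4% of all sites in 3 lists) and CDK7 +15.85 kb in unchallenged lists only (10.7%). MNAT1 +25.97 kb and +73.48 kb were in WT lists only (7.52%), with percentiles of 68.7, 50.9 and 35.95 at the first and 35.6, 55.2 and 46.0 at the second. These 4 sites lay below 70 in the lists that held them.

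By the mean over the lists that hold a site, the highest internal site was found in 1 list only in 5 genes. These were GTF2H1 +37.27 kb (intron 13) at 49.9, GTF2H3 +17.51 kb (intron 5) at 53.1, GTF2H5 +21.94 kb (intron 2) at 65.0, MNAT1 +58.48 kb (intron 1) at 69.65 and ERCC2 +19.30 kb (exon 23) at 16.7. GTF2H4, the shortest gene at 5.9 kb, had no internal site. For the motif shown above in MNAT1, TGANTCA was present within 200 bases around the summit at 30% of the 46201 sites of the genome outside promoters that were in all 8 lists.

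MNAT1, at 235.2 kb the longest member, had fewer regions in ASH1L-/- cells. It held 23 and 20 regions in unchallenged WT and 22 and 10 in WT after UV, against 17 and 6 in unchallenged ASH1L-/- and 3 and 7 after UV. Only WT replicate 2 after UV and ASH1L-/- unchallenged replicate 1, the deepest library, overlapped, and the means were 18.75 ± 5.97 and 8.25 ± 6.08 (SD, n = 4 libraries each). Per 100000 regions of the list, MNAT1 had 0.38 times as many in ASH1L-/- (log2 difference -1.40, SE 0.29, limma adjusted p = 0.0417), and limma called 0.823% of 18219 genes with fewer regions in ASH1L-/- and 1.3% in either direction. Of its 63 sites, 42 were found in a single list, and such a site is in 1 genotype only by definition. In all, 40 sites were found in WT lists only and 10 in ASH1L-/- lists only, which adds little to the counts of regions. The share of such sites over the whole genome was not counted. Its promoter averaged 92.3 in WT and 91.7 in ASH1L-/-.

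This call was lost when any of 7 of the 8 libraries was left out, with limma adjusted p from 0.00806 to 0.195 over the 8 fits and log2 differences from -1.68 to -1.11. The surroundings of MNAT1 moved with it. Within 5 Mb on each side there were 495.0 to 634.7 regions per 100000 in WT and 372.6 to 475.1 in ASH1L-/-, a log2 difference of -0.47. Scaled to these 5 Mb instead of the whole list, the MNAT1 difference was -0.93 (SE 0.27, limma adjusted p = 0.324), no longer called, where 0.0494% of genes were. The part of the surrounding chromosome in the result was not tested beyond this.

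**Figure D5:**
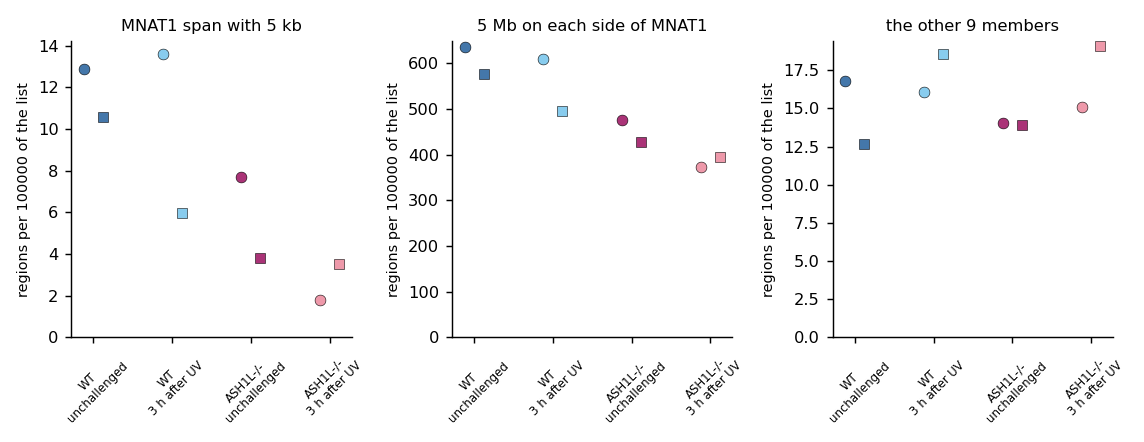
Regions per 100000 of each library's list over MNAT1 with 5 kb on each side (left), within 5 Mb on each side of MNAT1 (middle) and over the other 9 subunit genes (right), by group (circles, replicate 1, squares, replicate 2), each axis starting at 0. The ASH1L-/- libraries lie at 1.81 to 7.7 over MNAT1 against 5.99 to 13.61 in WT, all lie below WT in the middle panel, and the groups overlap on the right.

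Over the 9 other members together the counts were 30, 24, 26 and 31 in WT and 31, 22, 25 and 38 in ASH1L-/-, so that the groups overlapped. The 5 Mb on each side of 5 of the 10 members, GTF2H2, GTF2H5, CDK7, CCNH and MNAT1, had fewer regions in all 4 ASH1L-/- lists than in all WT lists, as for 21.7% of genes, and the stretches around GTF2H2 and CDK7 overlap each other. The gap was widest for GTF2H5 on chromosome 6, with 382.3 to 413.1 regions per 100000 in WT and 182.5 to 274.0 in ASH1L-/- (log2 difference -0.75, with 0.265% of genes at or below it). GTF2H5 itself held 4, 4, 3 and 8 regions in WT and 6, 4, 3 and 4 in ASH1L-/-, and its promoter averaged 94.9 and 96.6.

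UV left the number of regions per gene without a call in the limma model (0% of 18219 genes, 2304 at an unadjusted p below 0.05). ERCC3 had 3 and 4 regions in unchallenged WT, 7 and 6 in WT after UV, 3 and 4 in unchallenged ASH1L-/- and 5 and 5 in ASH1L-/- after UV. These counts did not overlap between treatments, as for 2.54% of genes and 1 of the 9 members tested. Per 100000 regions they did overlap (1.36 to 2.53 against 2.51 to 4.33), and the log2 difference was 0.75 (SE 0.25, limma adjusted p = 0.259). MNAT1 showed the opposite sign at -0.68 (limma adjusted p = 0.368), with overlapping groups. The interaction of UV and genotype was called for 0% of genes.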

How the data were processed

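ATAC-seq libraries of U2OS cells were sequenced with 50 bp paired reads. Per the labels' processing notes and the study's methods, the authors trimmed reads with cutadapt 1.9.1, aligned them with Bowtie2 2.4.5 to hg38 without chromosome Y, removed poorly mapped, duplicate and blacklisted reads, and called peaks per library with MACS2 2.2.7.1. Deposited per summit were a fold enrichment (a ratio, not normalised between libraries), p and q as -log10 values, and a score, which was not used. The lists reach down to -log10 p of 2.00. The methods name default settings for ATAC-seq, and a p-value cutoff that matches this floor for the ChIP-seq peaks.

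Here, a region was a distinct interval with its strongest record, and a promoter the strongest region within 1 kb of any annotated start site. Percentiles, and log2 of regions plus 0.5 per 100000 (genes with a mean of at least 1 region), were fitted with limma 3.58.1 in R 4.3.3 on the 4 groups, without a replicate block, and Benjamini-Hochberg adjustment over all features (threshold 0.05). UV and genotype differences were means over the other factor, and for the interaction the UV difference of ASH1L-/- was subtracted from that of WT. Exact permutation tests were two-sided, and cannot go below p = 0.0286. Fragment numbers were solved from fold enrichment and p-value, which succeeded for 100% of 20000 records per library and left 4 GTF2H4 summits unsolved. They cover counting error only. The same step gave each library's depth. Other steps used Python 3.11.15, pandas 2.3.3 and SciPy 1.17.1. In simulated promoter data for UV (13492 promoters), 6 of 50 shifts of 5 percentile points, 22 of 50 of 10, 31 of 50 of 20 and 43 of 50 of 40 were recovered, with 3 false calls. These shifts were not capped at the top of the scale, near which most member promoters lie. The shares therefore do not say what rise could be found there.

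Named were all 10 subunits, every site outside member promoters in all 8 lists, completely separating sites, and the highest internal site of each gene. The sites in 5 to 7 lists, and the regions over ASH1L with 5 kb on each side, were described after their values were seen. The members and lists were chosen with earlier results of these data known. Alternatives were other filters, scales, overlaps, distances and designs, and leaving out each library. Replicate numbers did not pair libraries in promoter percentiles (correlations of their deviations from -0.067 to 0.115). Site percentiles and regions per gene were not checked for pairing. One lineage marker and one stretch of sequence are not reported here.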

Additional observations from a re-analysis of the deposited data

How the results depend on the processing

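Of 162 counts of members called under alternatives, 138 equalled the reported count and 24 moved. The reported count was 0 in every comparison except regions per gene by genotype, where it was 1. Most of the equal counts are therefore 0 against 0, and say little about stability. The exact permutation test could hardly have given another count. Leaving out 1 library at a time gave 0 to 3 called promoters for UV, 0 to 1 for the interaction of UV and genotype, 0 to 1 called sites for UV, and 0 to 1 called genes for regions per gene by genotype. In the same way 0 to 1 sites separated UV from unchallenged cells and 0 to 1 the genotypes. Site calls for UV were 1 (CDK7 +4.05 kb) on the log2 scale and 1 (GTF2H3 +26.58 kb) with at least 4 lists. The call of MNAT1 by genotype was lost, to 0 genes, without the filter on low counts (adjusted p = 0.0644), with q at most 0.05 (0.0847), without the 5 kb extension (0.0570) and relative to 5 Mb on each side (0.324), this last alternative having been chosen after seeing the data. Complete separation by UV rose to 3 sites (ERCC3 +23.23 kb beside the 2 named) when a region had to cover at least 50% of its site. That rule depends on region width. With q at most 0.01 the number rose to 2. The cause was not tested.

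Of 1335 values of single members, 1318 kept their side of the threshold and their sign where called, 11 lost a call (all MNAT1 regions by genotype), 6 gained one and 0 reversed. Among those called under neither setting 176 changed sign, 30 of the 69 on the log2 scale. The replicate block changed the sign of 0 of 96 values and no member call. With the block, MNAT1 had a limma adjusted p of 0.0157, and 355 genes were called by genotype against 236 without it. For UV, 1953 sites were called with the block against 2828 without it. The number of called promoters ranged from 0 to 4217 for UV, 0 to 1032 for genotype and 0 to 561 for the interaction with 1 library left out, sites from 0 to 4320 for UV and 0 to 220 for genotype, and genes by regions from 19 to 266 for genotype. Weak sites rest on few fragments, so their absence from a list says only that no region was called at that depth.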
